A study of Homo sapiens with 12 samples.

Results

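AP-1 and C/EBP transcription factors were represented by 10 genes: FOS, FOSB, FOSL1 and FOSL2 of the FOS family, JUN, JUNB and JUND of the JUN family, and CEBPA, CEBPB and CEBPD of the C/EBP family. Every probe set whose single gene symbol was one of these names was taken, which gave 30 of the 44988 probe sets with a single symbol, and 10 of 18132 genes. FOSL1 had 6 probe sets, FOSL2 and CEBPD had 5 each, FOS and JUN had 4 each, FOSB had 2, and JUNB, JUND, CEBPA and CEBPB had 1 each, of a kind that may share probes with other transcripts.

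AP-1 is a dimer of basic leucine zipper proteins in which a JUN protein pairs with a FOS protein or with another JUN protein and binds a short palindromic DNA site. C/EBP proteins share the same kind of zipper but pair mainly among themselves and bind a different site. In epithelial cells, both families are known for coupling growth factor, stress and cytokine signals to proliferation, migration, differentiation and inflammatory gene expression, and several members are immediate early genes whose transcripts rise and decay quickly.

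The study addressed what the long noncoding RNA HOTAIR does in urothelial carcinoma cells, including their aggressive behaviour, differentiation and HOX genes. VM-CUB1 and 5637 are established human urothelial carcinoma lines, each transfected with a HOTAIR plasmid or with the empty vector, put under puromycin selection and grown in DMEM with FCS. RNA of VM-CUB1_HOTAIR 20 and of its vector control VM-CUB1_LV, and of 5637_HOTAIR 4 and of its vector control 5637_LV, was hybridised to Affymetrix PrimeView arrays, with 3 arrays in each of the 4 groups. Each HOTAIR group is a single clone and its 3 arrays are separate RNA preparations of it, so every p-value refers to the variation among preparations, and a property of a clone cannot be told apart from an effect of HOTAIR.

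The deposited values are on a log2 scale, and within each line the median of the 6 values of a probe set is 0. A value of 0 is therefore the middle of a line, not a low level, and neither levels of different genes nor levels of the 2 lines can be compared. For the same reason the labelled cell type could not be checked by the level of its markers. HOTAIR itself is not analysed here, because no probe set had it as its single symbol. Of 12 epithelial and urothelial markers, 2 rose and 7 fell in VM-CUB1_HOTAIR 20, where EPCAM had a log2 fold change of -8.21, and 4 rose in 5637_HOTAIR 4 while the other 8 did not pass the test. Of 21 markers of fibroblasts, endothelium, blood, muscle and nerve, 1 rose and 2 fell in VM-CUB1_HOTAIR 20 and 4 rose in 5637_HOTAIR 4, the extremes being CD68 at -1.02 in VM-CUB1 and CD14 at 0.92 in 5637. The part of these shifts in the results that follow was not tested. Correlations of array values within a group ran from 0.896 to 0.927 in the VM-CUB1 groups. They ran from 0.693 to 0.792 in the 5637 groups, lowest within 5637_LV. Because the values are centred within a line, these correlations grow with the difference between clone and control. They therefore do not rank the lines by array noise. The spread within groups was slightly smaller for 5637, with a median residual SD per gene of 0.079, than for VM-CUB1, with 0.087. In such bulk RNA, fewer cells that express a gene and less RNA per cell cannot be told apart.

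Promoters of members are shown first because some of these genes, JUN among them, are known AP-1 targets themselves. RefSeq promoter windows on GRCh38.p14 were taken for 8 of the 10 members, all but FOSL1 and CEBPD. Each was of 300 bases, with 250 before and 50 from the transcription start onwards. They were searched on both strands for the AP-1 site TGANTCA and for the related cAMP response type site TGACNTCA, which 7.71% and 7.72% of 35116 promoter windows of the same length hold. FOSL2 held the first kind, with its first base at position 4 counted from the start base as 0, and JUN and JUND held the other kind, at positions -67 and -200.
The windows lie at chr1:58783998-58784297 on the minus strand for JUN, at chr2:28392608-28392907 on the plus strand for FOSL2 and at chr19:18281573-18281872 on the minus strand for JUND. Each is written 5′ to 3′ in the direction of the gene, with the matched bases in capitals.
JUN: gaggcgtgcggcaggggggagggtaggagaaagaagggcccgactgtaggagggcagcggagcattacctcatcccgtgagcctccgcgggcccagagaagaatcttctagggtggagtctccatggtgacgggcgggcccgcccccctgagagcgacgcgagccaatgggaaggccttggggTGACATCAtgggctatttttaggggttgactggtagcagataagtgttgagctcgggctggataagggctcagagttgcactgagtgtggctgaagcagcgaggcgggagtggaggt
FOSL2: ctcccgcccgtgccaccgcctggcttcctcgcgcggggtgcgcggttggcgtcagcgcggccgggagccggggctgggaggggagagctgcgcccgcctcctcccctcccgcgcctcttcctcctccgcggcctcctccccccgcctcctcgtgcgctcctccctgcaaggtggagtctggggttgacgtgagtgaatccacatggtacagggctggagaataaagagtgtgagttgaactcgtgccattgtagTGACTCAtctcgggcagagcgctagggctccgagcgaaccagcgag
JUND: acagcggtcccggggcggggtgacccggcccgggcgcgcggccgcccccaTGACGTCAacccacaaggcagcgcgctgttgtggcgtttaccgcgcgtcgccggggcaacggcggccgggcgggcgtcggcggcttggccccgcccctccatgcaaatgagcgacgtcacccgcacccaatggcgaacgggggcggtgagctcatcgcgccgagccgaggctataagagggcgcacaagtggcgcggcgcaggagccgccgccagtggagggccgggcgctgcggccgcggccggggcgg
JUN and FOSL2 rose in VM-CUB1_HOTAIR 20 and JUND did not pass the test there, so a match did not go with a single outcome. The windows of FOS, FOSB, JUNB, CEBPA and CEBPB held neither form. The C/EBP type site TTNNGNAA, found in 36.8% of all windows, was present only in that of FOSB among the 8 members, as TTGGGGAA at position -89. The CCAAT box, found in 34.6% of all windows, lay in those of JUN, JUNB, JUND and CEBPB. A match describes letters and shows no binding.

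In VM-CUB1, 6 of the 10 factors differed between the HOTAIR clone and the vector control: JUN and FOSL2 rose, and FOSL1, JUNB, CEBPD and CEBPA fell. Of all genes, 41.6% were called in this comparison, 21.1% higher and 20.5% lower, at a Benjamini-Hochberg adjusted p under 0.01 in limma, a linear model fitted across all genes with 3 arrays against 3. The rise of JUN was 4.35-fold, and the falls of FOSL1, CEBPD and JUNB were 3.63-fold, 3.29-fold and 3.08-fold. Such called changes of at least 2-fold were thus found in 4 of 10 members and in 11.7% of all genes. FOS, FOSB, JUND and CEBPB did not pass the test. The median log2 fold change was -0.10 over the members and -0.03 over all genes.

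In 5637, 2 of the 10 factors were called, FOSL2 upwards and JUNB downwards, while 29.9% of all genes were called, 14.7% higher and 15.2% lower. Both changes were small, at 1.23-fold and 1.24-fold. The largest log2 fold change of a member, 0.63 for CEBPA, corresponded to 1.55-fold and did not pass the test, whereas 3.74% of all genes were called with at least 2-fold changes. The median was 0.14 over the members and -0.04 over all genes. FOSL2 and JUNB were called in both lines, each in the same direction, whereas 18.9% of all genes were called in both lines, 10.6% in the same direction and 8.26% in opposite directions.

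**Figure D1:**
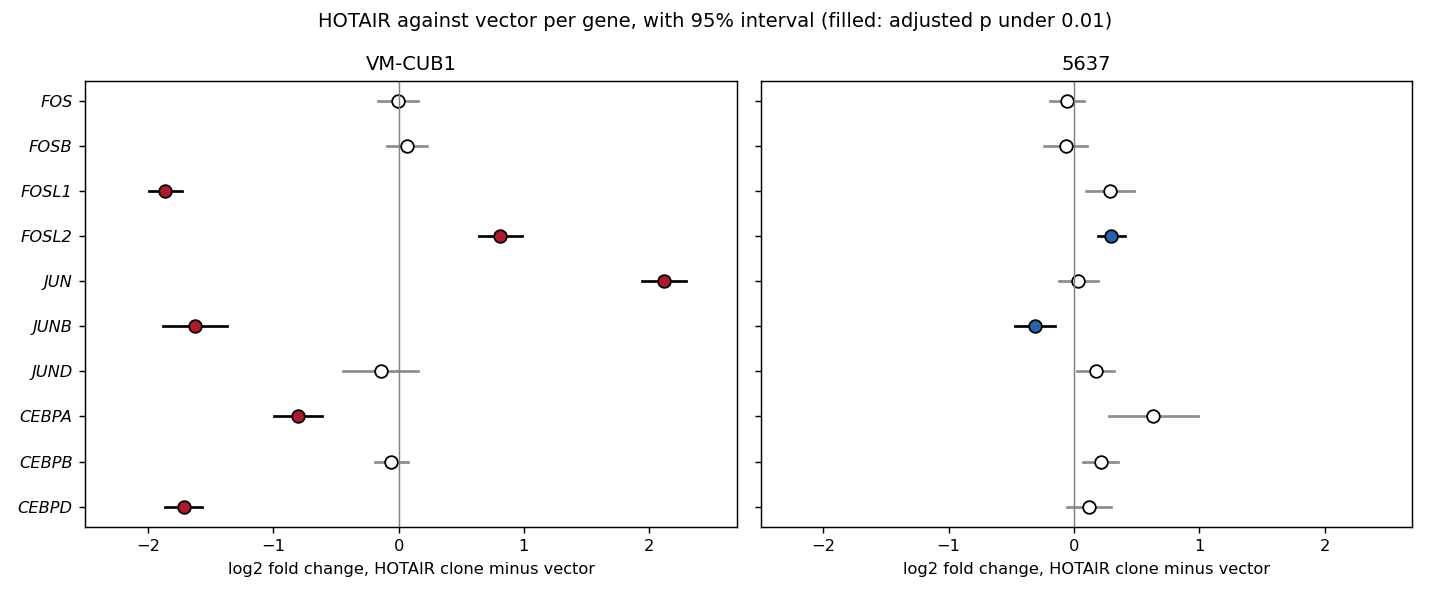
Log2 fold change of each of the 10 factors, HOTAIR clone over vector control, in VM-CUB1 and in 5637, with 95% confidence intervals from limma (3 arrays against 3 in each line). JUN at 2.12 and FOSL1 at -1.86 mark the extremes in VM-CUB1, while the 5637 values lie between -0.32 and 0.63.

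In the FOS family, the member with the largest change was FOSL1, which encodes the AP-1 subunit FRA-1, known for its part in the migration of carcinoma cells. FOSL1 had centred log2 values of -0.92, -0.94 and -1.05 on the 3 VM-CUB1_HOTAIR 20 arrays, against 0.86, 0.88 and 0.93 on the VM-CUB1_LV arrays. All HOTAIR arrays lay far below all vector arrays. This was a log2 fold change of -1.86 (SE 0.058, 95% CI -1.99 to -1.73, adjusted p = 3.4e-08, limma). In 5637, FOSL1 had values of 0.05, 0.18 and 0.07 in 5637_HOTAIR 4, against -0.35, -0.05 and -0.16 in 5637_LV. The groups did not overlap, but the HOTAIR arrays were close to the highest vector array, and the log2 fold change of 0.29 did not pass the test (95% CI 0.10 to 0.48, adjusted p = 0.023, limma). The HOTAIR effects on FOSL1 differed by -2.15 between the lines (VM-CUB1 minus 5637, SE 0.103, adjusted p = 1.4e-09, interaction in limma over 12 arrays). All 6 probe sets of FOSL1 fell in VM-CUB1, with log2 fold changes between -2.11 and -1.58, when each of the 49293 probe sets was tested on its own, of which 36.6% were called.

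FOSL2 encodes FRA-2, a close relative of FRA-1, and it moved the other way in VM-CUB1. Its values were 0.33, 0.47 and 0.40 in VM-CUB1_HOTAIR 20, against -0.28, -0.51 and -0.44 in VM-CUB1_LV. The groups were well apart, with a log2 fold change of 0.81 (SE 0.075, 95% CI 0.64 to 0.98, adjusted p = 2.6e-05, limma). In 5637_HOTAIR 4 the values were 0.12, 0.11 and 0.16, against -0.16, -0.16 and -0.19 in 5637_LV. Here too the groups were separate, and the difference was small but the spread smaller still, with a residual SD of 0.020 that only 1.58% of genes undercut in this line. It amounted to a log2 fold change of 0.30 (SE 0.046, 95% CI 0.19 to 0.40, adjusted p = 0.0011, limma). FOSL2 rose more in VM-CUB1 than in 5637, by 0.51 (SE 0.087, adjusted p = 0.00023, interaction in limma). This difference was 0.34 with the median of its probe sets and 0.28 after quantile normalisation, and passed the test in both. Tested singly, 2 of its 5 probe sets were called for this difference and 3 were not, with values from 0.20 to 1.18. All 5 probe sets were called higher in VM-CUB1, where 4 gave 0.53 to 0.82 and the other 1.502. In 5637, 3 of 5 were called higher, and 24.3% of all probe sets were called.

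FOS and FOSB, the immediate early genes of the family, had values between -0.12 and 0.15 on all arrays but 5637_LV replicate 2, where FOSB reached 0.21. The log2 fold change of FOS was -0.0023 in VM-CUB1 (95% CI -0.16 to 0.16, adjusted p = 0.98) and -0.06 in 5637 (95% CI -0.19 to 0.08, adjusted p = 0.49, limma). For FOSB it was 0.07 in VM-CUB1 (95% CI -0.09 to 0.23, adjusted p = 0.45) and -0.07 in 5637 (95% CI -0.24 to 0.11, adjusted p = 0.52, limma). The HOTAIR and vector arrays of both genes overlapped in both lines. The mean of FOS in VM-CUB1 hid probe sets that went apart. One gave -0.28 (adjusted p = 0.012) and another 0.42 (adjusted p = 0.048, limma over all probe sets), and the remaining pair gave -0.16 and 0.02, so none passed the test.

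**Figure D2:**
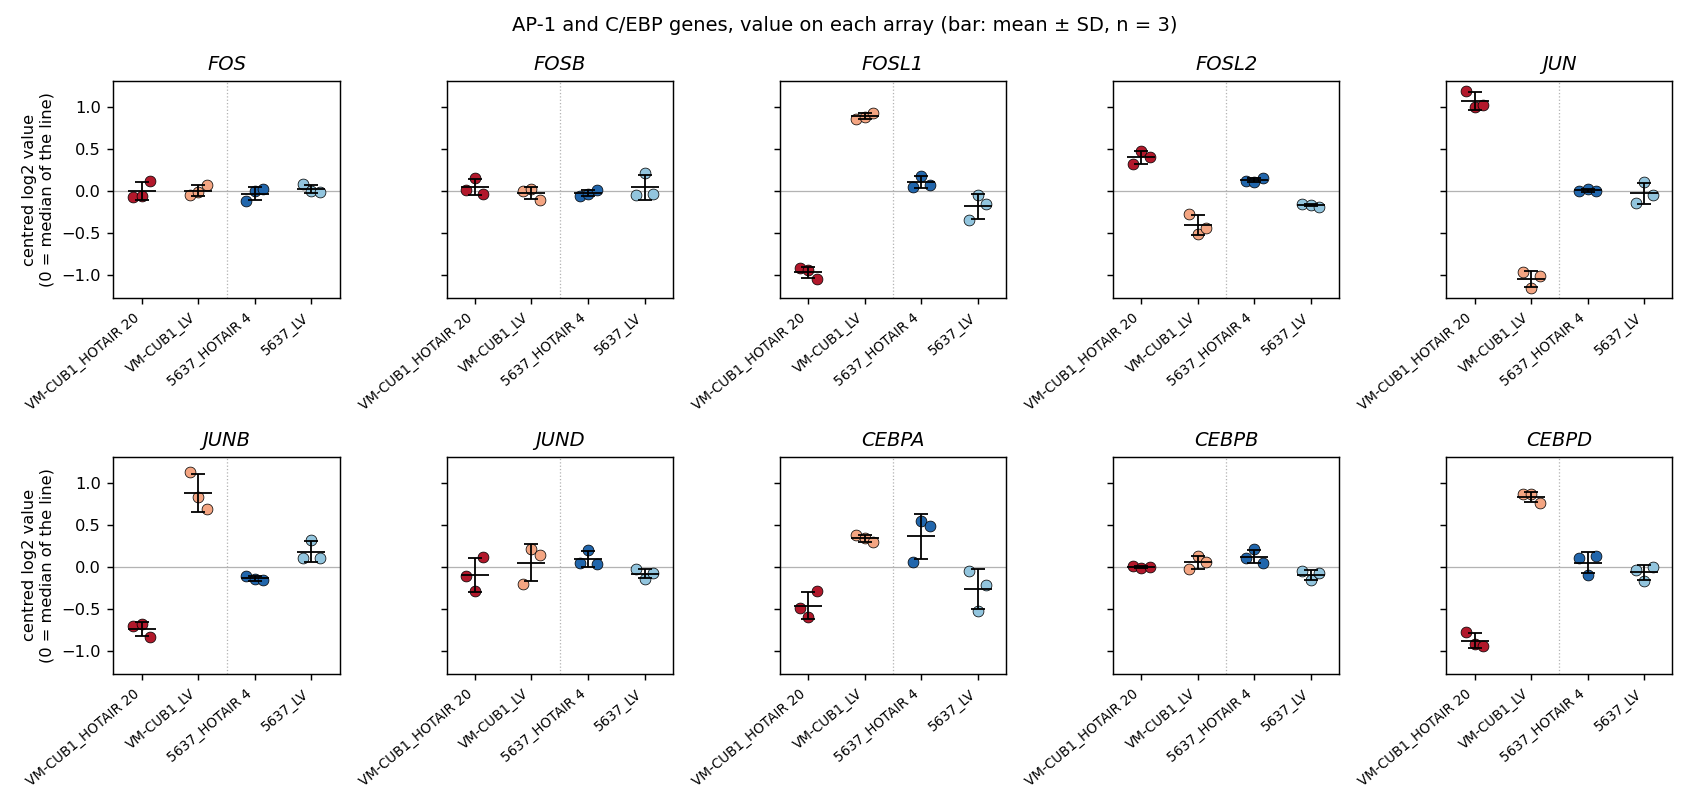
Centred log2 value of each of the 10 factors on each of the 12 arrays, with HOTAIR clones to the left of their vector controls, points for arrays and bars for the group mean and SD (n = 3). JUN, FOSL1, JUNB and CEBPD split the VM-CUB1 arrays widely, whereas FOS and FOSB overlap in both lines.

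In the JUN family, JUN and JUNB moved in opposite directions in VM-CUB1. JUN encodes c-JUN, the archetypal AP-1 activator, which can also induce its own gene. It had values of 1.19, 1.004 and 1.02 in VM-CUB1_HOTAIR 20, against -0.97, -1.16 and -1.02 in VM-CUB1_LV. All HOTAIR arrays lay far above all vector arrays. The log2 fold change was 2.12 (SE 0.076, 95% CI 1.95 to 2.30, adjusted p = 7.7e-08, limma) and its size exceeded that of 96.6% of genes. On the 5637_HOTAIR 4 arrays JUN had values of -0.0048, 0.02 and 0.0014, against -0.14, 0.10 and -0.05 in 5637_LV. The groups overlapped, with a log2 fold change of 0.03 (95% CI -0.12 to 0.19, adjusted p = 0.73, limma). The effects on JUN differed by 2.09 between the lines (SE 0.105, adjusted p = 2.3e-09, interaction in limma). The 4 probe sets of JUN gave 1.995 to 2.32 in VM-CUB1, all called higher, and -0.01 to 0.08 in 5637.

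JUNB, a JUN protein that can oppose c-JUN in dimers, had values of -0.70, -0.68 and -0.84 in VM-CUB1_HOTAIR 20, against 1.13, 0.83 and 0.68 in VM-CUB1_LV. The groups did not overlap, although the vector arrays were spread widely, with an SD of 0.227. This gave a log2 fold change of -1.62 (SE 0.110, 95% CI -1.88 to -1.37, adjusted p = 3.5e-06, limma). In 5637_HOTAIR 4, JUNB had values of -0.10, -0.14 and -0.16, against 0.11, 0.32 and 0.10 in 5637_LV. All HOTAIR arrays were lower again, but by less, with a log2 fold change of -0.32 (SE 0.069, 95% CI -0.47 to -0.16, adjusted p = 0.0067, limma). This call was lost in 8 of 14 alternative settings and omissions of single arrays, where the adjusted p reached 0.041, and in the test over all probe sets (adjusted p = 0.014). Leaving out replicate 1, 2 or 3 of 5637_HOTAIR 4 gave adjusted p-values of 0.018, 0.025 and 0.027, and leaving out 5637_LV replicate 2 gave 0.010. The difference between the lines was -1.31 (SE 0.139, adjusted p = 3.4e-06, interaction in limma), and -0.86 after quantile normalisation.

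JUND, the JUN protein present in most resting cells, did not pass the test in either line. Its values were -0.12, -0.28 and 0.12 in VM-CUB1_HOTAIR 20, against -0.20, 0.21 and 0.14 in VM-CUB1_LV. The arrays of both groups were scattered over the same range, with a residual SD of 0.211 that exceeded that of 96.2% of genes. The log2 fold change of -0.14 had a 95% CI of -0.44 to 0.16 (adjusted p = 0.41, limma). In 5637_HOTAIR 4 the values were 0.04, 0.20 and 0.03, against -0.03, -0.14 and -0.07 in 5637_LV, without overlap. Its log2 fold change there was 0.17 (95% CI 0.02 to 0.32, adjusted p = 0.065, limma).

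In the C/EBP family, CEBPD and CEBPA fell in VM-CUB1. CEBPD encodes C/EBPδ, which is induced in the acute phase response and in growth arrest. Its values were -0.78, -0.92 and -0.95 in VM-CUB1_HOTAIR 20, against 0.87, 0.87 and 0.76 in VM-CUB1_LV. The 3 HOTAIR arrays were tightly grouped below the vector arrays, and the log2 fold change was -1.72 (SE 0.065, 95% CI -1.87 to -1.57, adjusted p = 1.1e-07, limma). On the 5637_HOTAIR 4 arrays CEBPD had values of 0.11, -0.10 and 0.13, against -0.03, -0.16 and -0.0046 in 5637_LV. These groups overlapped, and the log2 fold change of 0.12 did not pass the test (95% CI -0.06 to 0.29, adjusted p = 0.27, limma). The difference between the lines was -1.83 (SE 0.103, adjusted p = 6.7e-09, interaction in limma). All 5 probe sets of CEBPD fell in VM-CUB1, with log2 fold changes between -1.997 and -1.14.

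CEBPA encodes C/EBPα, known for driving differentiation and cell cycle exit in several tissues. It had values of -0.49, -0.60 and -0.29 in VM-CUB1_HOTAIR 20, against 0.38, 0.34 and 0.29 in VM-CUB1_LV. The groups were apart, with a log2 fold change of -0.80 (SE 0.082, 95% CI -0.99 to -0.61, adjusted p = 4.9e-05, limma). In 5637_HOTAIR 4 the values were 0.06, 0.55 and 0.49, against -0.06, -0.53 and -0.22 in 5637_LV. Replicate 1 of each group lay nearest the centre, at equal distances that follow from the centring. The residual SD of 0.256 exceeded that of 99.2% of genes. The log2 fold change of 0.63 did not pass the test (SE 0.154, 95% CI 0.28 to 0.99, adjusted p = 0.011, limma). Without 5637_HOTAIR 4 replicate 1 it was 0.79, with an adjusted p of 0.0026. The effects on CEBPA differed by -1.43 between the lines (SE 0.193, adjusted p = 2.9e-05, interaction in limma).

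CEBPB, which encodes C/EBPβ, a mediator of interleukin signalling, had values between -0.01 and 0.01 in VM-CUB1_HOTAIR 20 and between -0.03 and 0.13 in VM-CUB1_LV. Its log2 fold change was -0.06 (95% CI -0.19 to 0.08, adjusted p = 0.47, limma). In 5637_HOTAIR 4 the values were 0.10, 0.21 and 0.05, against -0.05, -0.16 and -0.07 in 5637_LV, without overlap. Its log2 fold change of 0.21 there did not pass the test (95% CI 0.07 to 0.35, adjusted p = 0.022, limma). In all, the arrays of 6 of 10 members did not overlap in 5637, where this was so for 51.3% of all genes, and those of 6 of 10 did not overlap in VM-CUB1, where it was so for 58% of all genes.

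**Figure D3:**
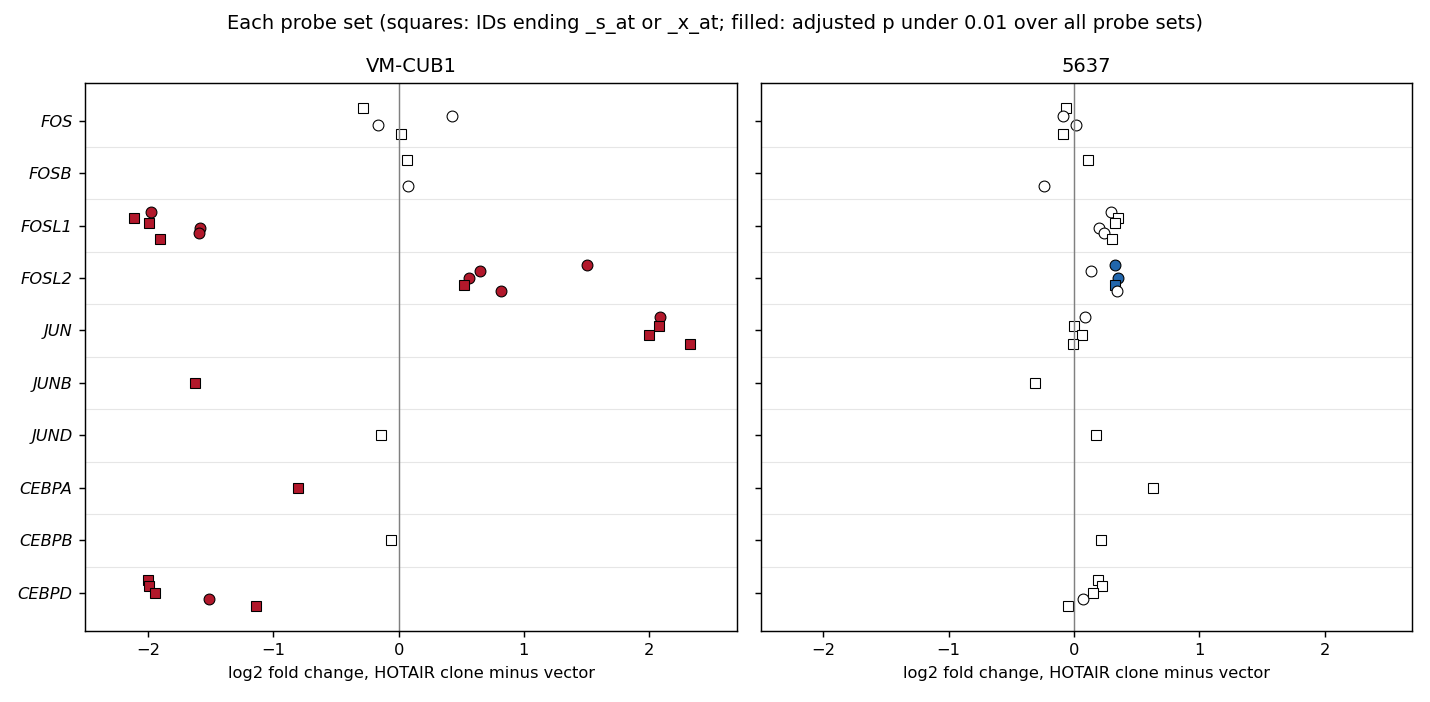
Log2 fold change of each of the 30 probe sets of the 10 factors, HOTAIR clone over vector control, in VM-CUB1 and in 5637, filled where the adjusted p was under 0.01, with squares for probe sets that may share probes with other transcripts. The probe sets of JUN (1.995 to 2.32), FOSL1 (-2.11 to -1.58) and CEBPD (-1.997 to -1.14) each lie on a single side of 0 in VM-CUB1, while those of FOS lie on both.

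The HOTAIR effect differed between the lines for 6 of the 10 factors, namely FOSL1, FOSL2, JUN, JUNB, CEBPA and CEBPD, whereas 42% of all genes were called in this interaction test. The difference was upwards for JUN and FOSL2, as for 21.9% of all genes, and downwards for the other 4, as for 20.1%. It was at least 2-fold for 5 of them, all but FOSL2, and for 14.7% of all genes. These were the same 6 factors that were called in VM-CUB1. For FOSL2 and JUNB the effect ran the same way in both lines and was larger in VM-CUB1. For the remaining 4, the difference was 0.05 for FOS (95% CI -0.14 to 0.25, adjusted p = 0.68), 0.14 for FOSB (-0.09 to 0.37, adjusted p = 0.32), -0.32 for JUND (-0.66 to 0.03, adjusted p = 0.12) and -0.27 for CEBPB (-0.45 to -0.09, adjusted p = 0.014, limma). The genes whose values followed FOSL2 most closely over the 12 arrays were PEX5 and MSRB1 (Pearson's r of 0.994 each), and those closest to JUNB were TMEM223 (0.995) and DTNA (0.993). These correlations are a description, and the points share lines, clones and centring.

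The other genes of these pathways were described from lists put together by known role, and each count is set against all genes, of which 21.1% were called higher and 20.5% lower in VM-CUB1, and 14.7% higher and 15.2% lower in 5637. No list was tested as a group. Of 12 measured AP-1 family zipper factors outside the members, 2 rose and 6 fell in VM-CUB1_HOTAIR 20 (median log2 fold change -0.17). MAFF, a small MAF protein, rose by 0.49 and NRL, a MAF family factor of photoreceptors, by 0.42, whereas JDP2, a repressor of AP-1, had -0.82 and BATF3, an inhibitory partner of JUN, had -0.68. In 5637_HOTAIR 4, 2 of the 12 rose, MAFF by 0.39 and BATF2 by 0.29, and the other 10 did not pass the test. BATF2 fell by 0.28 in VM-CUB1_HOTAIR 20. Among the 3 other C/EBP relatives, DDIT3, the stress-induced partner also called CHOP, and CEBPG fell in VM-CUB1, with log2 fold changes of -0.96 and -0.54. CEBPG went the other way in 5637, where it rose by 0.67, and DDIT3 had 0.24 and was not called.

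Of 23 kinases, activators and degraders of these factors, VM-CUB1 had 9 higher and 8 lower (median 0.14), and 5637 had 6 higher and 2 lower (median 0.06). MAPK8, which encodes the JUN kinase JNK1, rose by 0.69 in VM-CUB1 and MAPK3, which encodes ERK1, rose by 0.72. MAPK10, which encodes the neuronal JUN kinase JNK3, fell by 1.18, and MAP2K1, a kinase upstream of ERK, fell by 0.87 in VM-CUB1. MAP2K2, another kinase upstream of ERK, rose by 0.63 in VM-CUB1. In 5637, RPS6KA2, a ribosomal S6 kinase, rose by 0.71 and ELK3, a partner of SRF, by 0.51. MAP2K2 and CREB1, a factor of the cAMP response site, fell there by 0.46 and 0.33. By contrast, MAP2K1 rose by 0.465 in 5637, and CREB1 rose by 0.49 in VM-CUB1.

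Of 21 other immediate early genes, VM-CUB1 had 10 higher and 4 lower (median 0.20, against -0.03 over all genes), and 5637 had 11 higher and 3 lower (median 0.33, against -0.04). Over all genes, calls in either direction were about equally common in each line. FOS and FOSB, which are induced by the same signals, were not called. In VM-CUB1_HOTAIR 20, the matricellular gene CCN2 rose 13.4-fold and the MAP kinase phosphatase gene DUSP1 8.35-fold, while IER3 fell by 1.38 and ZFP36, which promotes mRNA decay, by 0.88 on the log2 scale. In 5637_HOTAIR 4, the kinase gene SGK1 rose 5.84-fold and DUSP5 3.62-fold, while EGR1, a zinc finger factor, fell by 0.69 and GADD45B by 0.48 on the log2 scale. IER3 and ZFP36 rose there by 0.66 and 0.79, whereas GADD45B rose by 0.52 in VM-CUB1_HOTAIR 20. Of 6 heat shock genes, which rise when cells are stressed in handling, 3 fell in VM-CUB1, among them HSPA1B with a log2 fold change of -2.43 and DNAJB1 with -0.52. In 5637, HSPA1B rose by 0.34, and HSPE1 and HSPD1 had -0.43 and -0.33. HSPA1B has a nearly identical neighbour, HSPA1A, so its value may hold both. The part of this in the values of the immediate early genes was not tested.

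Of 24 measured genes known as AP-1 targets, VM-CUB1 had 10 higher and 4 lower (median 0.05, against -0.03 over all genes), and 5637 had 14 higher and 1 lower (median 0.45, against -0.04). For comparison, 21.1% of all genes were called higher and 20.5% lower in VM-CUB1, and 14.7% higher and 15.2% lower in 5637. The chemokine gene CXCL8 rose in both lines, 118-fold in VM-CUB1 and 6.45-fold in 5637. PLAUR, the urokinase receptor, rose 8.29-fold in VM-CUB1. SPRR1B, a gene of squamous differentiation, went in opposite directions, with a log2 fold change of -3.86 in VM-CUB1 and 1.93 in 5637. CCND1, a cyclin of G1 phase, fell by 1.34 in VM-CUB1 and rose by 0.99 in 5637. PLAU and VEGFA were likewise called lower in VM-CUB1 and higher in 5637. In 5637 the collagenase gene MMP13 was the single target that fell, by 0.29.

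Of 21 genes known as C/EBP targets, VM-CUB1 had 2 higher and 1 lower, and 5637 had 8 higher and 3 lower. In 5637 no C/EBP member passed the test, with log2 fold changes of 0.63 for CEBPA, 0.21 for CEBPB and 0.12 for CEBPD. A link between these factors and the targets was not tested. PPARG, the nuclear receptor of fat cells and of differentiated urothelium, rose 30.8-fold in VM-CUB1, and FABP4, a fatty acid carrier, 3.82-fold, whereas in 5637 PPARG fell by 0.79 and FABP4 by 3.02 on the log2 scale. LCN2, a secreted iron-binding protein, fell by 2.57 in VM-CUB1 and rose by 3.04 in 5637 on the log2 scale. The calprotectin genes rose most in 5637, S100A9 23.8-fold and S100A8 18.3-fold. The median over the list was -0.0092 in VM-CUB1 and -0.0016 in 5637, both near that of all genes. Each gene named from these lists had an adjusted p of at most 0.0087 in limma, apart from DDIT3 in 5637.

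**Figure D4:**
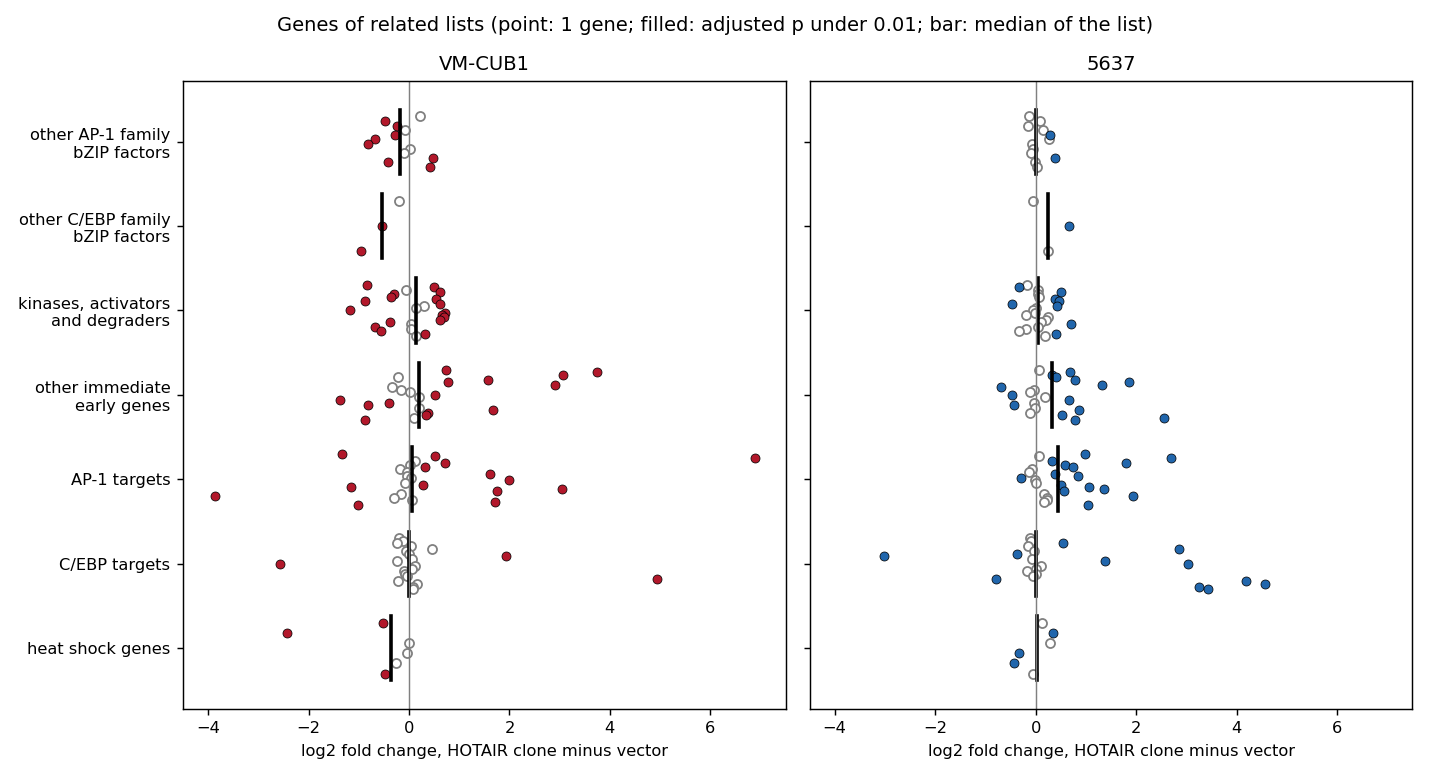
Log2 fold change of the measured genes of each list, HOTAIR clone over vector control, in VM-CUB1 and in 5637, with a point per gene, filled where the adjusted p was under 0.01, and a bar at the median of each list. The AP-1 targets lie mostly above 0 in 5637, with a median of 0.45, and spread between -3.86 and 6.88 in VM-CUB1.

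The number of members called in 5637 changed with the threshold and the fit. At an adjusted p under 0.05 the number was 5, with FOSL1, CEBPA and CEBPB added to FOSL2 and JUNB. When all 12 arrays shared an estimate of the spread it was 4, with FOSL1, CEBPA and CEBPB called and JUNB not. FOSL2 was the only member called in 5637 in every setting tried that gave it a value, with adjusted p-values between 0.0008 and 0.0068, while the 6 calls in VM-CUB1 held in all settings in which these genes had a value.

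**Figure D5:**
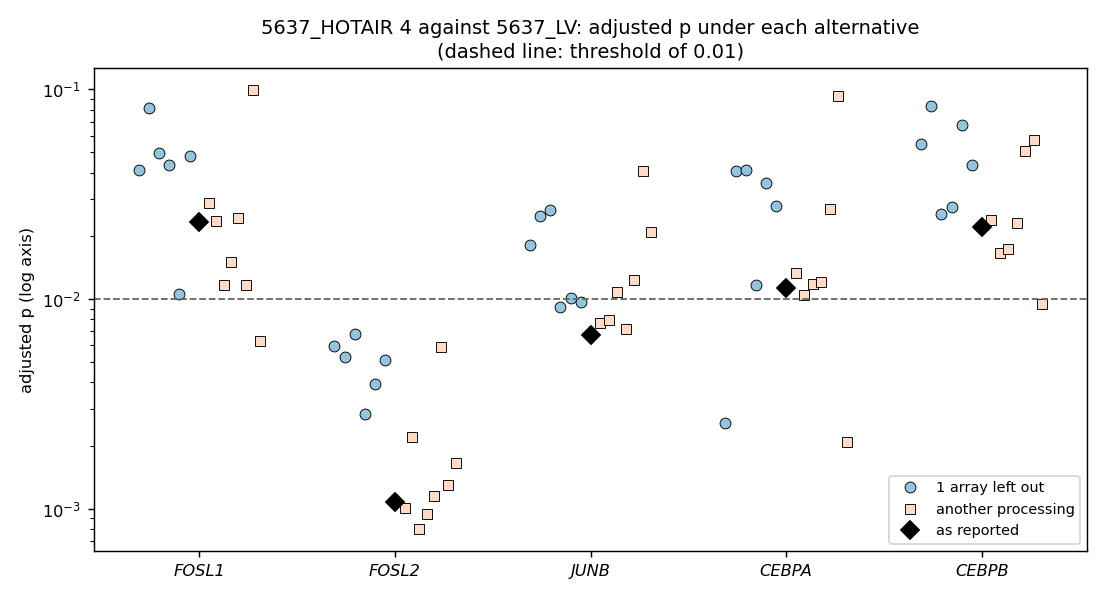
Adjusted p of FOSL1, FOSL2, JUNB, CEBPA and CEBPB in 5637 as reported (diamonds), with each single array left out (circles) and under another processing (squares), on a logarithmic axis with the 0.01 threshold as a dashed line. FOSL2 stays below the line throughout, between 0.0008 and 0.0068, while JUNB reaches 0.041.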

How the data were processed

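Per the submitters' processing notes and the methods, the authors summarised 3′ arrays with RMA in GeneSpring, transformed them to a baseline and deposited the log2 result for each probe set, without levels. Centring leaves differences within a line intact but allows no filter on low signal, so genes near background are among those tested. Of 49395 probe sets, 102 controls were left out. Genes are means of probe sets with exactly 1 symbol in the platform annotation (44988). The SE covers the spread between arrays, and the number of arrays limits the precision. JUNB, JUND, CEBPA and CEBPB each rest on 1 probe set that may share probes with other transcripts.

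HOTAIR was compared with vector in each line by limma 3.58.1 in R 4.3.3 (lmFit and eBayes, two-sided, Benjamini-Hochberg over 18132 genes, threshold 0.01), and the lines by an interaction over 12 arrays. Scripts were tested on simulated data. Promoters were from RefSeq, and member windows on chromosome 8, which holds CEBPD, were left out of the search. Figures used Python 3.11.15 and matplotlib 3.10.9. Named list genes were the 2 with the largest rise and the 2 with the largest fall among those called in each line. Some are also given for the other line, and PLAU and VEGFA were added because they were called in opposite directions. The closest genes by correlation were taken for members called in both lines. The members and lists were chosen with earlier results of these data known. Alternatives were other summaries, normalisations, tests, thresholds and omissions of arrays.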

Additional observations from a re-analysis of the deposited data

Results flagged for a closer look

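The HOTAIR effect differed between the 2 lines for 6 of the 10 factors in the interaction test over 12 arrays (limma, adjusted over all genes), beside 42% of all genes. The difference in log2 fold change, VM-CUB1 minus 5637, was 2.09 for JUN, 0.51 for FOSL2, -2.15 for FOSL1, -1.31 for JUNB, -1.43 for CEBPA and -1.83 for CEBPD. Groups of 3 arrays were too small to be tested for outlying arrays.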

How the results depend on the processing

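In VM-CUB1 6 members were called, and 6 without any single array. In 5637 2 members were called. The number was 1 after quantile normalisation, with the methods' t-test and without probe sets that share probes, where JUNB has no value, 4 in a fit of all 12 arrays, 5 at an adjusted p under 0.05, 1 when probe sets were tested singly, and 1 to 2 with 1 array left out. The labels do not say whether equal replicate numbers mark paired preparations. Deviations from the group means correlated at -0.05 to 0.08 for same-numbered arrays and at -0.07 to 0.08 for the others, which does not settle this. With the replicate number as a block, 6 members were called in VM-CUB1, 1 in 5637, where JUNB was lost (adjusted p = 0.012), and 6 in the difference between the lines. Between the lines, 6 members differed, and 6 to 7 with 1 array left out, CEBPB being added without VM-CUB1_LV replicate 1 (-0.31, adjusted p = 0.0061, limma). Signs turned only for uncalled values. FOS in VM-CUB1 was 0.13 without shared probe sets, 0.0156 with arrays centred and 0.0171 after quantile normalisation. With 1 array left out, FOS ran from -0.0627 to 0.0337 in VM-CUB1 and from -0.0064 to 0.09 in the difference, JUN from -0.0219 to 0.101 in 5637, and FOSB from -0.1104 to 0.0158 in 5637. Over all genes, the methods' t-test called 5892 in VM-CUB1 and 3655 in 5637, against 7536 and 5430. Arrays without deposited levels do not show which members were near background.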
